A study of Mus musculus with 4 samples.

Results

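Heat shock proteins, DNAJ proteins and the CCT chaperonin are the main protein-folding machines of the cell, and they were followed here gene by gene in the cerebral cortex of mice labelled Ndrg2 knockout and wild type. A gene was included when the transcript accession of a probe maps to a symbol of the Hspa, Hspb, Hspd, Hspe, Hsph or Hsp90 series or of the Dnaj series, to Tcp1 or Cct2 to Cct8, or to Cryab, Hsf1, Hsf2 or Bag3, with Hspb1 and Hspg2 left out. This gave 83 genes (112 probes) of the 20832 genes with a symbol on the array. Of these, 76 members (103 probes) had a probe well above background and were tested among 15759 genes. Dnajb7, Dnajb13, Dnajc5b, Dnajc5g, Dnajc22, Hspb7 and Hspbap1 were not well above background and were not tested.

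HSP70 proteins bind exposed hydrophobic stretches of unfolded proteins in a cycle driven by ATP, J-domain proteins of the DNAJ family bring the substrate and trigger ATP hydrolysis, and HSP90 acts later on partly folded clients such as kinases and steroid receptors. The cytosol, the endoplasmic reticulum (ER) and the mitochondrion each have their own HSP70, while CCT, also called TRiC, is a cytosolic barrel of stacked rings that folds actin and tubulin. Heat shock factor 1 switches on the inducible cytosolic genes when unfolded proteins accumulate, and a separate unfolded protein response acts on the ER genes. In neurons, J proteins also serve synaptic vesicles and clathrin coats.

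Both genotypes were adult males on a C57BL/6N background, 3 months of age, and 200 ng of total cortical RNA was used for each labelling. There were 4 two-colour arrays, numbered 1 to 4 after the replicate numbers in the labels. Each array set 1 RNA sample labelled Ndrg2-/- (Cy5, red) against 1 labelled wild type (Cy3, green), with the dyes never exchanged, so genotype and dye cannot be told apart. Values are log2 ratios of labelled knockout over labelled wild type, with the SD over arrays and n = 4 throughout, and a positive ratio is higher in the RNA labelled knockout. A call needed an adjusted p under 0.05 in limma, with Benjamini-Hochberg adjustment over all probes kept. Nothing in the labels tells single animals from pools, so the p-values reflect only how far these RNA samples spread, which may be technical.

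The labels do not say which stretch of Ndrg2 was deleted, and the array's Ndrg2 probe did not check them: its ratios were 0.11, 0.37, 0.40 and 0.38 (mean 0.32, adjusted p = 0.0173 in limma), higher and not lower in the RNA labelled knockout. Every direction given here therefore rests on the labels. Markers of neurons in general and of cortical excitatory neurons (5 of each) were well above background in both channels of all arrays. Among lists of other cells and states, all 7 meningeal fibroblast markers were called higher (list median 0.50; array medians 0.61, 0.45, 0.25 and 0.67). Activity-induced genes (8, with Egr1 called) had a median of 0.58 and array medians of 1.24, 0.87, -0.09 and 0.28. The 5 glucocorticoid-induced genes had a median of 0.06 with none called, and array medians of -0.06, -0.14, 0.30 and 0.35. The activity-induced list was thus highest on arrays 1 and 2 and the glucocorticoid-induced list on arrays 3 and 4. In whole tissue, fewer cells of a type and less RNA per cell cannot be told apart.

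Small differences in both directions marked the chaperone genes, and no member reached 1.5 fold by its mean, a size that 43 genes of the whole array passed. Of the 76 members, 10 were called higher (13.2%) and 5 lower (6.6%), 15 in all (19.7%). Over all genes 9.12% were called higher and 5.84% lower, 15.0% in all, so these shares were not far from the background. Probes for chaperones were bright, with 15 members among the brightest 10% of genes, where 13.8% of genes were called higher and 9.59% lower. In that bright set 3 members were called higher and none lower. An unadjusted p under 0.05 was found for 10 of the 15 members, and for 719 of all 1575 genes of the set. Among the other genes the shares were 8.59% and 5.42%, and 7 and 5 of 61 members were called there.

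The median ratio over members was 0.02, and over all genes it was 0.01. The median of the members was 0.00, 0.05, -0.05 and -0.02 on arrays 1 to 4. Of the 76 members, 40 kept 1 sign on all 4 arrays, a larger share than over all genes (6730 of 15759, or 42.7%). All 15 called members kept 1 sign, but a call rests on the same 4 arrays, so this is no separate support for the calls. Their absolute ratios ran from 0.15 to 0.39, with a median fold of 1.18 and a largest of 1.31. Without array 1 the calls were 2 higher and 1 lower, without array 2 also 2 and 1, without array 3 they were 6 and 2, and without array 4 they were 8 and 3. Over all genes the calls higher and lower fell alike, to 436 and 210 without array 1 and to 321 and 131 without array 2. From the signals as processed by the scanner software, the member calls were 2 higher and 3 lower. They were 9 and 7 without background subtraction, and 37 and 7 without loess. In the same order, the calls over all 15759 genes were 779 and 550, 1305 and 1126, and 5630 and 4126, so the rise without loess was array-wide. With the processed signals, 5 of the 15 calls remained, those of Hspa12b, Hspb8, Dnajc18, Dnajc9 and Dnajb3. Dnajc18 and Hspa12b passed in all 13 alternatives run.

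**Figure D1:**
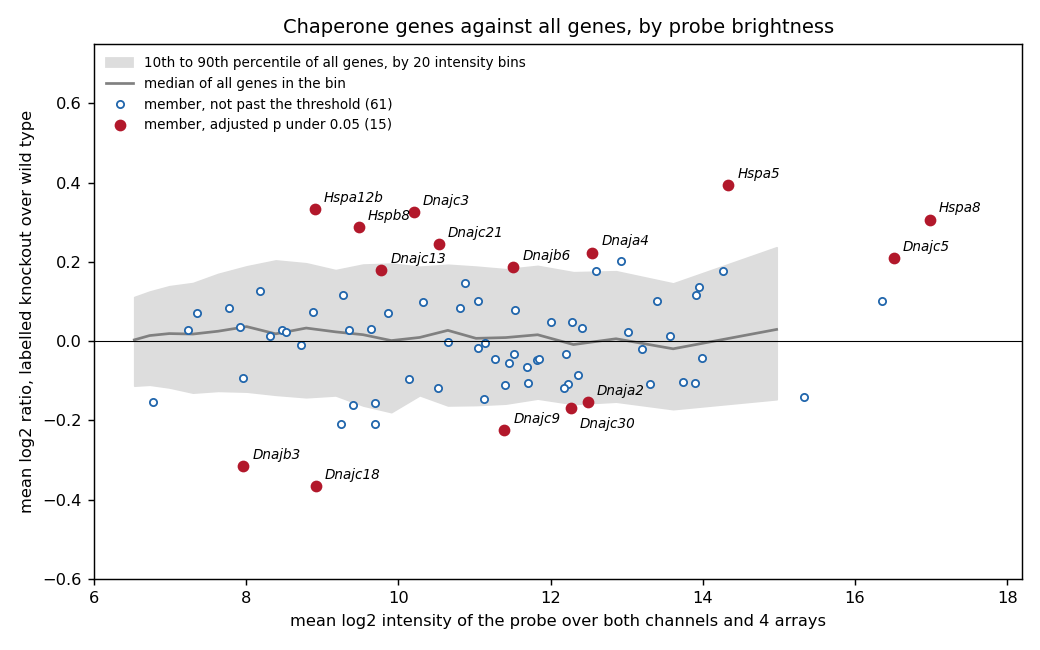
Mean log2 ratio of each of the 76 tested members (labelled knockout over wild type, y axis) against the mean log2 intensity of its probe over both channels and 4 arrays (x axis). The grey band spans the 10th to the 90th percentile of all 15759 genes in 20 bins of intensity, filled points are the 15 called members and open points the other 61. Most called members lie outside or at the edge of the band, with Hspa5 highest at 0.39 and Dnajc18 lowest at -0.37. Dnajc13 and Dnaja2 lie just inside it. The band ends at an intensity of 14.97, so Hspa8 and Dnajc5, which are brighter, have no band beside them. Dnaja2 and Dnajc30, lower here, were above 0 without loess.

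Of the 7 classic stress-inducible genes 1 was called, and the class as a whole was not tested. Their median ratio was 0.03, with array medians of 0.14, 0.12, -0.12 and -0.06, so that arrays 1 and 2 lay above 0 and arrays 3 and 4 below. The same arrays divided the activity-induced genes (medians 1.24 and 0.87 against -0.09 and 0.28) and, the other way round, the glucocorticoid-induced genes (-0.06 and -0.14 against 0.30 and 0.35), and the part of either in the values of Hspa1a, Dnajb1 and the rest of the class was not tested. Hspb8, a small heat shock protein that works with Bag3 in the selective autophagy of misfolded proteins, was the member that rose. Its ratios were 0.23, 0.24, 0.31 and 0.37, a mean of 0.29 ± 0.07 and an adjusted p of 0.00912. All 4 arrays were high and close together. Hspb8 kept its call without each array in turn and, of the 13 alternatives, missed the threshold only when the channels were fitted as unpaired samples (adjusted p = 0.0576).

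Hspa1a, the inducible cytosolic HSP70, had ratios of 0.14, 0.08, -0.05 and -0.06 (mean 0.03 ± 0.10, 95% interval -0.08 to 0.14, adjusted p = 0.718). The sign differed between arrays. Hspa1a has a near-identical copy, Hspa1b, and its probe may read both, so this value is uncertain for either gene. Hspa1b itself and Dnajb5 were not matched to a probe and are not analysed here.

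Hsp90aa1, the inducible cytosolic HSP90, lay below 0 on every array at -0.11, -0.04, -0.21 and -0.20, and its mean of -0.14 ± 0.08 did not pass (adjusted p = 0.0764). Hsph1, the HSP110 that exchanges nucleotide on HSP70, had ratios of -0.05, -0.04, -0.18 and -0.15 (mean -0.10 ± 0.07, adjusted p = 0.140). For both genes the lower values were on arrays 3 and 4. Without loess both were called higher, Hsp90aa1 at 0.19 (adjusted p = 0.00694) and Hsph1 at 0.14 (adjusted p = 0.0233). With an intensity trend in the prior variance, Hsp90aa1 was called lower (adjusted p = 0.0323). Dnajb1, the J protein that partners inducible HSP70, spread from 0.48 and 0.22 on arrays 1 and 2 to -0.07 and -0.10 on arrays 3 and 4 (mean 0.14 ± 0.27, adjusted p = 0.360; called at 0.39 without loess). Bag3 had 0.08, 0.12, -0.13 and 0.04, a mean of 0.03 ± 0.11 (adjusted p = 0.750). Array 3 was the low one for Bag3, as it was for Cryab.

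Cryab, the small heat shock protein αB-crystallin that oligodendrocytes and astrocytes carry, had ratios of 0.41, 0.31, -0.12 and 0.21 (mean 0.20 ± 0.23, adjusted p = 0.141). Array 3 stood below 0 and the other 3 above it, and Cryab was called without array 3 (0.31, adjusted p = 0.0404) and without loess (0.40, adjusted p = 0.00332). The 7 oligodendrocyte markers had array medians of 0.12, 0.19, -0.12 and 0.19, also lowest on array 3, with Mbp called and a list median of 0.09. The 5 astrocyte markers had a median of 0.17 with none called. Their part in the Cryab values was not tested.

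**Figure D2:**
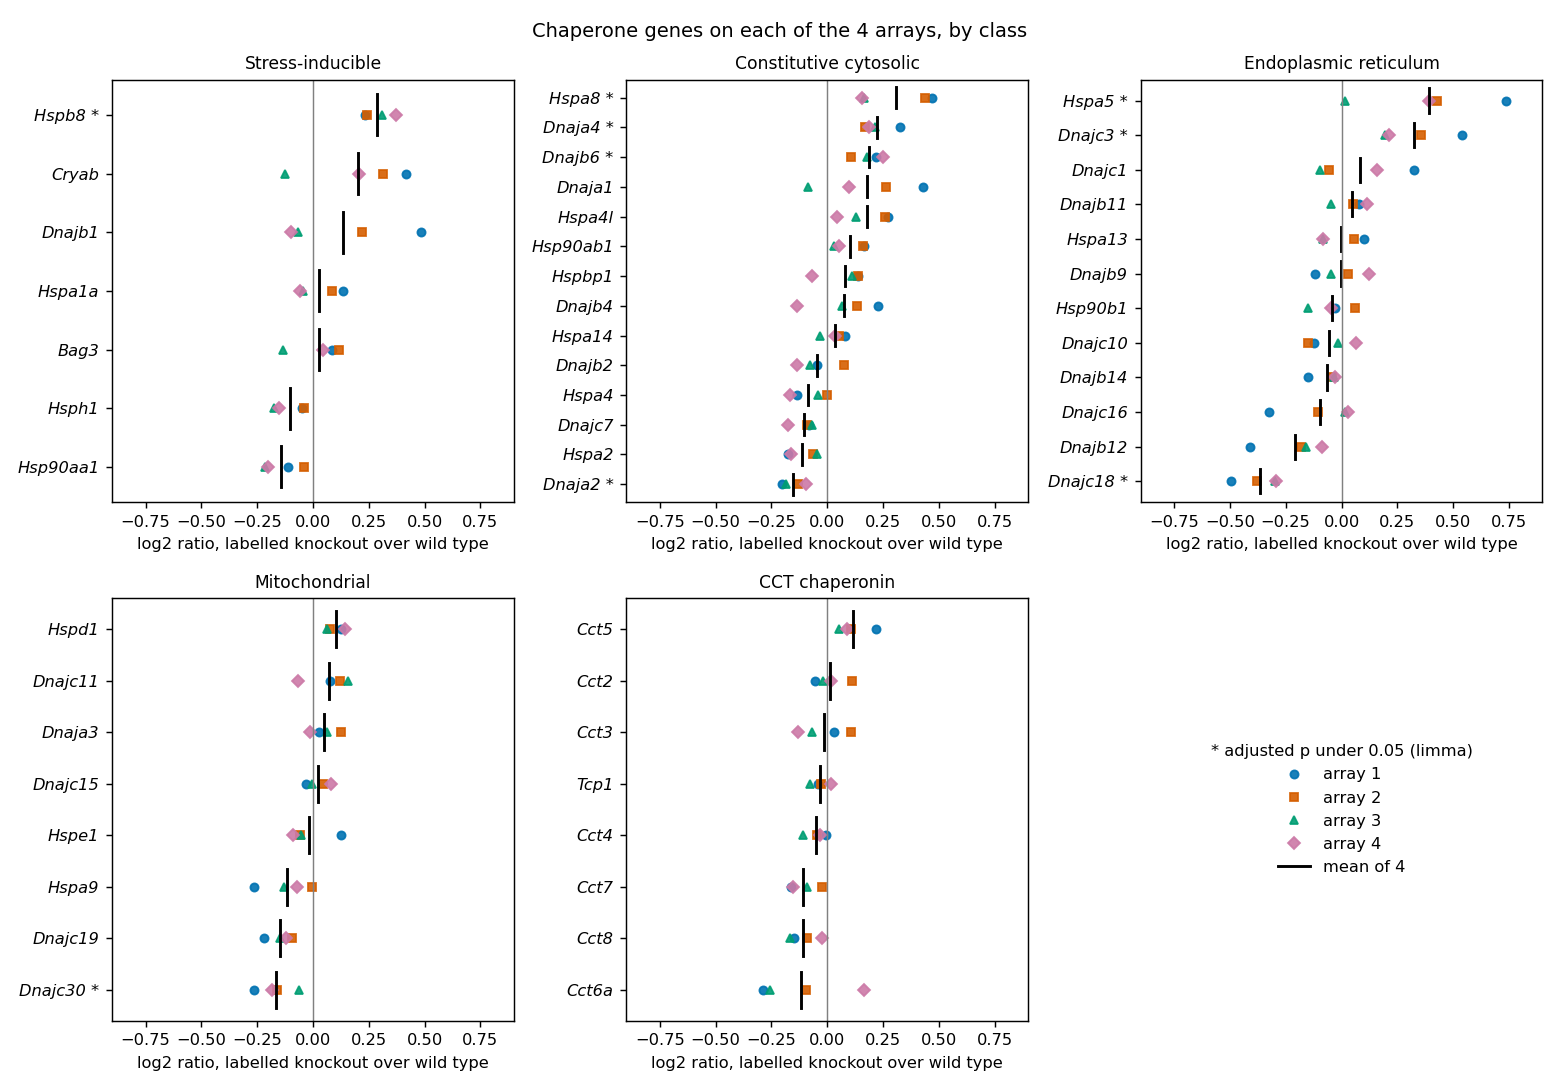
Log2 ratios (labelled knockout over wild type, x axis) of the stress-inducible, constitutive cytosolic, ER, mitochondrial and CCT members on each of the 4 arrays (symbols), with the mean as a bar and an asterisk where the adjusted p in limma was under 0.05. In the inducible class Hspb8 is the gene with all 4 arrays clustered to the right (0.23 to 0.37), while Dnajb1 runs from -0.10 to 0.48. In the ER class Hspa5 and Dnajc3 lie to the right and Dnajc18 to the left on every array. Without loess the means of Hsp90aa1, Hsph1, Hsp90b1, Hspa9, Hspe1, Dnaja2 and Dnajc30 were above 0. Of these, Hsp90aa1, Hsph1, Hsp90b1 and Hspe1 were then called higher.

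Among the constitutive cytosolic genes, 3 of 14 were called higher and 1 lower, beside 9.12% and 5.84% of all genes. The class median was 0.08, with array medians of 0.15, 0.12, -0.00 and -0.02. Arrays 1 and 2 were again the higher ones, as for the activity-induced genes, whose part in the class and in Hspa8 was not tested. Hspa8, the constitutive cytosolic HSP70 that also strips clathrin from coated vesicles, gave 0.47, 0.44, 0.16 and 0.16 on its brightest probe. That is a mean of 0.31 ± 0.17, or 1.24 fold, with an adjusted p of 0.0261. Arrays 1 and 2 were clearly higher than arrays 3 and 4, and none was below 0. Its 2 other probes did not show this, with 0.17, 0.14, -0.20 and -0.14 (mean -0.00) and with 0.15, 0.23, -0.10 and -0.48 (mean -0.05). All 3 probes had arrays 1 and 2 above arrays 3 and 4. The Hspa8 call was lost without array 1 (0.25, adjusted p = 0.0841), without array 2 (0.26, adjusted p = 0.108) and with the processed signals (0.18, adjusted p = 0.136). The mean of the probes was 0.08, and without loess the ratio of the brightest was 0.74.

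Dnaja4, a J protein of the cytosol, had ratios of 0.32, 0.17, 0.22 and 0.19 (mean 0.22 ± 0.07, adjusted p = 0.0199). Its dimmer probe averaged -0.01. Dnajb6, a J protein known for holding back polyglutamine aggregates, had 0.22, 0.10, 0.18 and 0.25 (mean 0.19 ± 0.06, adjusted p = 0.0296). All arrays were above 0 for both genes. Of the other 3 Dnajb6 probes, the one for the same transcript as the brightest had a mean of 0.13, and those for another transcript of the gene had -0.15 and -0.04. Dnaja2, another cytosolic J protein, fell on its brightest probe at -0.20, -0.13, -0.18 and -0.10 (mean -0.15 ± 0.05, adjusted p = 0.0445), while its second probe lay above 0 on all arrays (mean 0.08) and its mean without loess was 0.03.

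These J protein calls depended on having all arrays. Dnaja4 missed the threshold without array 1, 2 or 3, at adjusted p values of 0.0675, 0.0688 and 0.0711. Dnajb6 missed it without any 1 of the arrays, at adjusted p values from 0.0701 to 0.0958, and so did Dnaja2, from 0.0587 to 0.153. Means over the probes of a gene were 0.11 for Dnaja4, 0.03 for Dnajb6 and -0.04 for Dnaja2, and none of these passed.

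Hsp90ab1, the constitutive cytosolic HSP90, had 0.16, 0.16, 0.03 and 0.05 (mean 0.10 ± 0.07, 95% interval 0.00 to 0.20, adjusted p = 0.153). The Hsp90ab1 ratio depended on the normalization, at -0.0019 with the processed signals and at 0.49 without loess, where it was called (adjusted p = 0.00010). Hspa4l (0.18) and Dnaja1 (0.18) were the next highest of the class and did not pass (adjusted p = 0.0582 and 0.170). Dnajb4, Hspa14 and Hspbp1 had means from 0.03 to 0.08, and Hspa2, Dnajc7, Hspa4 and Dnajb2 had means from -0.11 to -0.05. None of these 7 was called.

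Proteins that work with the cytosolic chaperones were a list of 20 co-chaperones with 19 tested. Of these, 2 were called higher and 3 lower, beside 9.12% and 5.84% of all genes, and the median was -0.03. Fkbp4, an immunophilin of steroid receptor complexes, had the largest ratio at 0.34 (adjusted p = 0.0139). Ptges3, the HSP90 co-chaperone p23, had -0.26 (adjusted p = 0.00987), and Chordc1, an HSP90-binding protein, had 0.29 (adjusted p = 0.0378). The calls of Fkbp4 and Chordc1 were lost without array 1 (adjusted p = 0.0549 and 0.0755) and without array 2 (0.0604 and 0.123), and that of Chordc1 also without array 3 (0.0591) or 4 (0.0599). Ptges3 lost its call without array 2 (adjusted p = 0.0514), without loess (-0.05, adjusted p = 0.320) and with the mean of its probes (-0.06, adjusted p = 0.272). Partners of HSP90 thus lay on both sides of 0.

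The ER class had 2 of 12 members called higher and 1 lower, beside 9.12% and 5.84% of all genes. Its median was -0.02 (0.13 without loess). Hspa5, also called BiP, is the HSP70 of the ER lumen and holds the unfolded protein response in check. Its ratios were 0.74, 0.43, 0.02 and 0.39, a mean of 0.39 ± 0.30 and a fold of 1.31, the largest of any member (adjusted p = 0.0438). Array 1 was highest and array 3 was near 0. The call was lost without array 1 (0.28, adjusted p = 0.108), without array 2 (0.38, adjusted p = 0.144) and without array 4 (0.39, adjusted p = 0.0945), and the ratio was 0.67 without loess.

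Dnajc3, the ER J protein that works with Hspa5 and inhibits the kinase PERK, had 0.54, 0.36, 0.19 and 0.21 (mean 0.32 ± 0.16, adjusted p = 0.0202). Again array 1 was highest, and all were above 0. The call was lost without array 1 (0.25, adjusted p = 0.0549) and without array 2 (0.31, adjusted p = 0.0876). Hsp90b1, the HSP90 of the ER known as GRP94, did not follow, with -0.03, 0.06, -0.15 and -0.05 (mean -0.04 ± 0.09, 95% interval -0.15 to 0.06, adjusted p = 0.564). Without loess, however, Hsp90b1 was called higher (0.21, adjusted p = 0.00483).

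Dnajc18, a J protein of the ER membrane, fell on every array at -0.49, -0.38, -0.30 and -0.29. Its mean of -0.37 ± 0.09, a 1.29-fold lower signal, had the smallest adjusted p of any member (0.00590). The call held without each array in turn, at adjusted p values up to 0.0426 over all alternatives. Dnajb12, its relative in the ER membrane, also lay below 0 on all 4 arrays (-0.41, -0.18, -0.16 and -0.09) but did not pass (mean -0.21, adjusted p = 0.0526). Dnajb14, another J protein of this kind, had a mean of -0.06 with no call. The remaining members were Dnajc1, Dnajb11, Hspa13, Dnajb9, Dnajc10 and Dnajc16, with means from -0.10 to 0.08 and no call.

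ER folding genes outside the families above, 15 in all, were a comparison list. Of these 4 were called higher and 1 lower, beside 9.12% and 5.84% of all genes. The list median was 0.12, with array medians of 0.12, 0.14, 0.05 and 0.15. Sdf2l1, a partner of Hspa5 in the ER lumen, had 0.78, 0.45, 0.11 and 0.20 (mean 0.38, adjusted p = 0.0472). Manf, a secreted protein of the stressed ER, had 0.52, 0.36, 0.05 and 0.31 (mean 0.31, adjusted p = 0.0341). Like Hspa5, both were highest on array 1 and lowest on array 3. Pdia4 and Ero1b were the others called higher. Pdia4 had its highest value on array 1 and its lowest on array 3 too, while Ero1b was highest on array 2 (0.16, 0.32, 0.16 and 0.24). Sil1, the nucleotide exchange factor of Hspa5, was lower at -0.27 (adjusted p = 0.00767), and at -0.10 without loess (adjusted p = 0.0765). The calls of Sdf2l1 and Manf were lost without array 1 (adjusted p = 0.0906 and 0.0998), array 2 (0.156 and 0.126) and array 4 (0.0618 and 0.0772), and that of Sdf2l1 also without array 3 (0.0538).

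Array 1 was also highest and array 3 lowest for the activity-induced genes, at medians of 1.24 and -0.09, and array 3 was lowest for the meningeal markers at 0.25. Their part in the ER values was not tested.

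**Figure D3:**
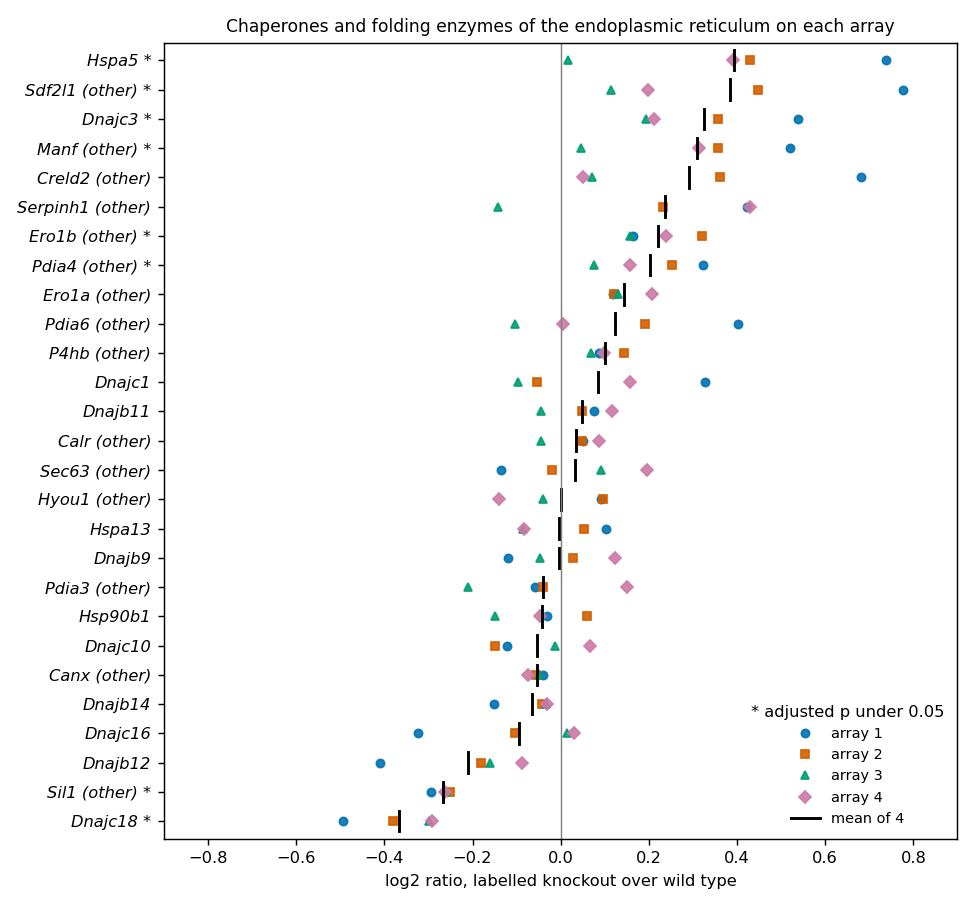
Log2 ratios (labelled knockout over wild type, x axis) on each of the 4 arrays for the 12 ER members and the 15 ER folding genes of the comparison list (marked other), ordered by mean. An asterisk marks an adjusted p under 0.05 in limma and the bar is the mean. Hspa5, Sdf2l1, Dnajc3 and Manf lead, each highest on array 1 and lowest on array 3, and Sil1 and Dnajc18 stand lowest with their arrays close together. Hsp90b1, at -0.04 here, was called higher without loess (0.21).

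The promoters of these ER genes were read for the ER stress element, CCAAT followed after any 9 bases by CCACG, on either strand. Promoters of 300 bases, 250 before and 50 after the start, came from RefSeq (GRCm38.p6) and were matched for 66 of the 83 members. Dnajc2, Dnajc5, Dnajc5b, Dnajc11, Dnajc12, Dnajc18, Dnajc22, Dnajc30, Cct4, Cryab, Hsf1, Hsp90aa1, Hsp90ab1, Hspa8, Hspa9, Hspa13 and Hspb2 are the others. An element was found in 3 members, Hspa5, Dnajc3 and Hsp90b1, or 4.55% of the 66, against 0.14% (37) of the 27025 genes of the promoter table. All 3 are ER members, of 10 in the class with a promoter. Of the 12 ER genes of the comparison list with a promoter, 5 had an element (Calr, Canx, Creld2, Ero1b and Pdia6). The same element thus stands before 2 members that were called and before Hsp90b1, which was called only without loess. A match is a description of letters and not of a bound factor. The 250 bases before the start of these 3 genes are shown because they share the element, which is in capitals, 5′ to 3′ on the gene's strand. Hspa5 is at chr2:34771840-34772089 (+), Dnajc3 at chr14:118937682-118937931 (+) and Hsp90b1, with 2 elements in opposite orientation, at chr10:86705445-86705694 (-).
Hspa5: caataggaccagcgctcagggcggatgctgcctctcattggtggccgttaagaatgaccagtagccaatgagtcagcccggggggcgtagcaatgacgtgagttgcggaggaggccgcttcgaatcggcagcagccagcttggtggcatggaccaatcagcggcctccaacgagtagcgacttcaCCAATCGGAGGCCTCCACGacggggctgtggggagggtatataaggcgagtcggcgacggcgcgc
Dnajc3: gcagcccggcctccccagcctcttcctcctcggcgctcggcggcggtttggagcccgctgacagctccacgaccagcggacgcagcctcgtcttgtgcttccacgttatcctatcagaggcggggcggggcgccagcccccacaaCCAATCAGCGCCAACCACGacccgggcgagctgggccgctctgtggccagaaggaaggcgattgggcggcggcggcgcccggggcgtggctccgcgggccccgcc
Hsp90b1: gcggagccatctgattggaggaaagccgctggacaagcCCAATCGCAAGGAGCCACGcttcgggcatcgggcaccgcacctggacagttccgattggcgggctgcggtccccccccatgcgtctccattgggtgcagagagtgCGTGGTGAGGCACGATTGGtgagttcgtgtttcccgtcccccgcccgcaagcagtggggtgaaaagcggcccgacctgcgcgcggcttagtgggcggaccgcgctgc

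The mitochondrial members showed no call upward and 1 of 8 downward, with a median of 0.00 (0.18 without loess). An unadjusted p under 0.05 was found for 3 of the 8, and for 5480 of all 15759 genes. Hspa9, the mitochondrial HSP70, had -0.27, -0.00, -0.13 and -0.07 (mean -0.12 ± 0.11, adjusted p = 0.160; 0.06 without loess). Hspd1, the chaperonin HSP60, had 0.13, 0.08, 0.06 and 0.14 (mean 0.10 ± 0.04, adjusted p = 0.117; called at 0.32 without loess). Its lid Hspe1, or HSP10, had 0.12, -0.06, -0.05 and -0.09 (mean -0.02 ± 0.10, adjusted p = 0.817). Hspd1 was above 0 on every array and the brightest Hspe1 probe on array 1 alone, though the genes are neighbours transcribed from a shared promoter. That difference depended on the normalization, as Hspe1 was called higher too without loess (0.19, adjusted p = 0.0120). The other Hspe1 probes had means of 0.0048 and -0.052. The dimmest of them was below 0 on array 1 (-0.042) and above 0 only on array 4 (0.024).

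Dnajc30, a mitochondrial J protein of neurons linked to ATP synthase, was the member that fell, at -0.26, -0.16, -0.06 and -0.18 (mean -0.17 ± 0.08, adjusted p = 0.0494; 0.0087 without loess). It sat at the threshold and missed it without any 1 of the arrays (adjusted p from 0.0765 to 0.153). Dnajc19, a J protein of the protein import motor, lay below 0 on its brightest probe at -0.22, -0.10, -0.15 and -0.12 (mean -0.15, adjusted p = 0.0538). A second probe, designed to another transcript of the gene, had 0.48, 0.41, 0.47 and 0.54 (mean 0.47, adjusted p = 0.00101). The arrays of each probe lay close together and the probes had opposite signs, 0.62 apart, so no direction is given for the gene. Dnajc11, Dnaja3 and Dnajc15 had means from 0.02 to 0.07 without a call. Of 13 other mitochondrial chaperones and proteases none was called higher and 2 lower, Hscb, which hands on iron-sulfur clusters (-0.22, adjusted p = 0.0332), and the protease Htra2 (-0.16, adjusted p = 0.0474; 0.02 without loess). The median of that list was -0.02. The calls of Hscb and Htra2 were lost without array 1 (adjusted p = 0.108 and 0.144), array 2 (0.130 and 0.130) and array 3 (0.0647 and 0.0863), and that of Htra2 also without array 4 (0.105).

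A second promoter motif was the heat shock element in its 3-unit form, GAA and TTC in turn with any 2 bases between neighbours, on either strand. It was found in 4 members, Hspe1, Hspd1, Hsph1 and Dnajb6, or 6.06% of the 66, against 0.66% (179) of the promoter table. In Hsph1 it lay after the start, and before the start the counts were 3 members (4.55%) and 139 genes (0.51%). Its 2-unit part, GAANNTTC or TTCNNGAA, which every 3-unit match contains, was in 18 members (27.27%) and in 16.97% of the table. Before the start it was in 14 members (21.21%) and in 14.55% of the table. Of the 5 inducible genes with a promoter, 4 had the 2-unit part in the whole window and 2 before the start. Among the 4 genes with the 3-unit form only Dnajb6 was called. Of their promoters 2 are printed, that of Hspe1 because it is shared with Hspd1 and that of Dnajb6 because the gene was called. The 250 bases before the start are given with the element in capitals, where Hspe1, at chr1:55087898-55088147 (+), holds 2 overlapping matches and Dnajb6, at chr5:29735648-29735897 (+), holds 1.
Hspe1: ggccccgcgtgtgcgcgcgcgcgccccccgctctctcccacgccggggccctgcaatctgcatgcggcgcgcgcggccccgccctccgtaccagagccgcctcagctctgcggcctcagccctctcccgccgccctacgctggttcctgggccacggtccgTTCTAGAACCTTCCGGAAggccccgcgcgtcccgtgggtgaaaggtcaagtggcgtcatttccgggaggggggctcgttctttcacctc
Dnajb6: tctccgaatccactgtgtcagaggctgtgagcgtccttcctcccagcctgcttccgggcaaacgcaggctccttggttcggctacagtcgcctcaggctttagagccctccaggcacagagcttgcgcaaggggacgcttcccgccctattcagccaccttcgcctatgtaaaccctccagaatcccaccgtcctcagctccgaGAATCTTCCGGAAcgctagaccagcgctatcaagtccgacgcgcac

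None of the 8 CCT subunits was called. An unadjusted p under 0.05 was found for 3 of them, and for 5480 of all 15759 genes. Their means ran from -0.12 (Cct6a) to 0.12 (Cct5), with 2 above 0 and 6 below. The class median was -0.04, with array medians of -0.05, -0.03, -0.08 and -0.00, and it turned to 0.12 without loess. Cct5 was above 0 on every array (0.22, 0.10, 0.05 and 0.09, adjusted p = 0.112), and Cct7 and Cct8 were below 0 on every array (means -0.11 and -0.11, adjusted p = 0.127 for each). Subunits of this single complex therefore lay within 0.12 of 0 on average. The 95% intervals of the 8 subunits all lay between -0.29 and 0.22. Of 9 partners that pass substrates to CCT or regulate it, the prefoldin subunit Pfdn6 was called lower (-0.23, adjusted p = 0.0163) and none higher, with a list median of -0.04. The Pfdn6 call was lost without array 1, 2 or 3 (adjusted p = 0.0549, 0.0602 and 0.0647) and without loess (-0.06, adjusted p = 0.211).

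**Figure D4:**
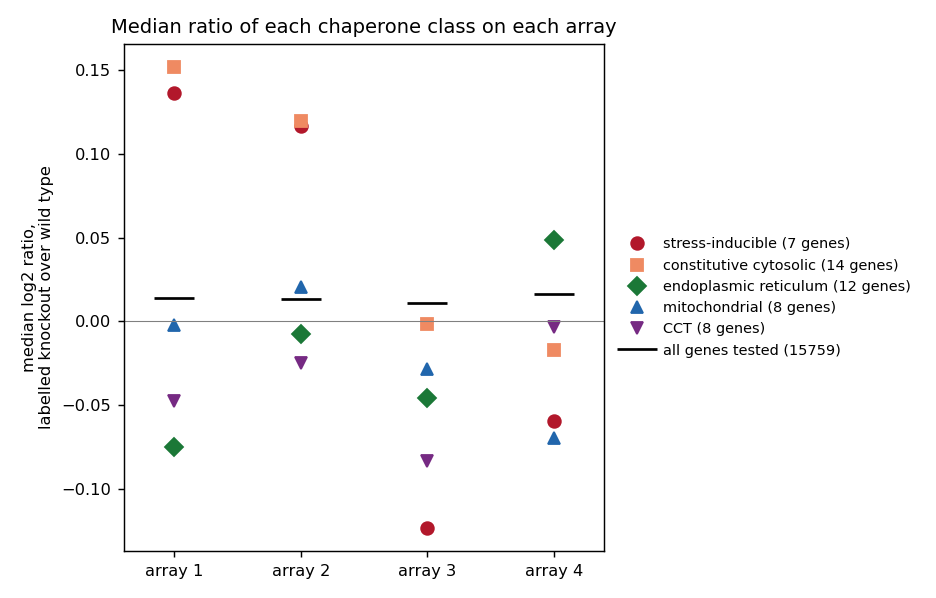
Median log2 ratio (labelled knockout over wild type, y axis) of 5 chaperone classes on each of the 4 arrays (x axis), with the median of all 15759 genes as a bar. The inducible and constitutive cytosolic classes lie highest on arrays 1 and 2 (0.12 to 0.15) and the inducible class falls to -0.12 on array 3, while the CCT class stays at or below 0. Without loess the medians over arrays of the ER and CCT classes were above 0.

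J proteins of synaptic vesicles and endosomes were a class of 3, of which 2 were called higher, beside 9.12% of all genes. The class as a whole was not tested. Dnajc5, the cysteine string protein that keeps SNARE proteins of synaptic vesicles folded, had 0.28, 0.19, 0.23 and 0.15 (mean 0.21 ± 0.05, adjusted p = 0.0196). Dnajc13, an endosomal J protein that acts on clathrin and retromer, had 0.13, 0.15, 0.16 and 0.28 (mean 0.18 ± 0.07, adjusted p = 0.0341). All arrays were above 0 for both, with array 4 the highest for Dnajc13. Dnajc6, or auxilin, which recruits Hspa8 to clathrin coats, had a mean of -0.01 and no call.

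A second Dnajc5 probe was also called (mean 0.22, adjusted p = 0.0223) and its other probe was not (0.06). With the processed signals the Dnajc5 ratio was 0.10 (adjusted p = 0.180) and without loess 0.61, and the call was lost without array 1, 2 or 3 (adjusted p from 0.0707 to 0.0767). Dnajc13 missed the threshold without any 1 of the arrays (adjusted p from 0.0755 to 0.104). Of the 5 general neuronal markers 2 were called higher, Snap25 (0.20) and Rbfox3 (0.16), and the list median was 0.04. Syt1 (-0.18, adjusted p = 0.0507) and Tubb3 (-0.10) were below 0 on every array and were not called, nor was Stmn2 (0.04). The part of the neuronal markers in these values was not tested.

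Of the 5 J proteins of the nucleus and ribosome, 1 rose and 1 fell. Dnajc21, which acts in the maturation of the large ribosomal subunit, had 0.27, 0.46, 0.15 and 0.10 (mean 0.24 ± 0.16, adjusted p = 0.0454). Its second probe was called too (0.44, 0.69, 0.20 and 0.20, mean 0.38, adjusted p = 0.0272). Both probes were highest on array 2 and lowest on arrays 3 and 4. The call on the brightest probe was lost without array 1, 2 or 3 (adjusted p = 0.125, 0.134 and 0.0861).

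Dnajc9, a nuclear J protein that also chaperones histones, had -0.22, -0.25, -0.24 and -0.19 (mean -0.23 ± 0.03, adjusted p = 0.0139), the narrowest spread of any called member. The call was lost without array 1, 2 or 3 (adjusted p = 0.0504, 0.0690 and 0.0602) and without loess (-0.07, adjusted p = 0.183). Dnajc9 lies on chromosome 14 with Ndrg2, 319 protein-coding genes away. Dnajc15 and Dnajc3 are on the same chromosome, 308 and 373 genes away, and had ratios of 0.02 and 0.32. Dnajc9 and Dnajc15 lie within 40 Mb of Ndrg2, and Dnajc3 does not. The part of linkage to the targeted locus in these values was not tested. Dnajc2, Dnajc8 and Dnajc17 had means from -0.16 to 0.02 with no call.

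The heat shock factors differed in sign, and neither passed. Hsf1, the main stress-activated factor, had 0.27, 0.16, 0.14 and 0.02 (mean 0.15 ± 0.10, adjusted p = 0.0873; called at 0.28 without loess), and Hsf2 had -0.09, -0.09, -0.16 and -0.31 (mean -0.16 ± 0.11, adjusted p = 0.0698). Each kept its sign on all arrays, with array 4 the lowest for both.

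Hspa12b, a distant HSP70 relative enriched in endothelium, was the called member outside these classes, and it rose. Its ratios were 0.45, 0.21, 0.27 and 0.41 (mean 0.33 ± 0.12, 1.26 fold, adjusted p = 0.0111), with arrays 1 and 4 the highest. Of 4 endothelial markers Pecam1 was called higher (0.18), Ly6c1 (0.22), Flt1 (-0.08) and Cldn5 (-0.14) were not called, and the list median was 0.05 (array medians 0.05, -0.06, -0.00 and 0.08). The meningeal markers were highest on arrays 1 and 4 as well (0.61 and 0.67). Their part in the Hspa12b ratio was not tested. Its relative Hspa12a had a mean of 0.03.

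The other 9 unclassed members tested, Hspa12a among them, were not called and had means from -0.11 (Dnajc4) to 0.10 (Dnajc12). They are Dnajc4, Dnajc12, Dnajc14, Dnajc24, Dnajc25, Dnajc27, Dnajc28 and Hspb11. The small heat shock proteins Hspb2, Hspb6 and Hspb3, which are known from muscle, had means of 0.13, 0.12 and -0.21 and no call. The 6 mural cell markers beside them had a median of 0.19 with none called.

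Dnajb3, a J protein known from testis, fell at -0.50, -0.40, -0.13 and -0.23 (mean -0.32 ± 0.17, adjusted p = 0.0235). All arrays were below 0, arrays 1 and 2 most. The call was lost without array 1 (-0.25, adjusted p = 0.0703) and array 2 (-0.29, adjusted p = 0.10). The other 3 testis-enriched members tested, Hspa1l, Hspb9 and Dnajb8, had means from -0.15 to 0.08 and were not called.

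Probes of 1 gene often disagreed, which limits how far a single ratio speaks for a gene. Of the 20 members with more than 1 kept probe, 12 had 1 sign over all probes and 8 did not. In Hspa8, Dnajb6 and Dnajc19 the probe means were 0.35, 0.34 and 0.62 apart. Of the 15 called members, 9 rested on 1 probe, and of the 6 with several, Dnajc5 and Dnajc21 had the same sign throughout. Hspa13 was at -0.00 on its brightest probe and at 0.15 on the other (adjusted p = 0.0503), and Hspa4 ranged from -0.29 to -0.09.

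**Figure D5:**
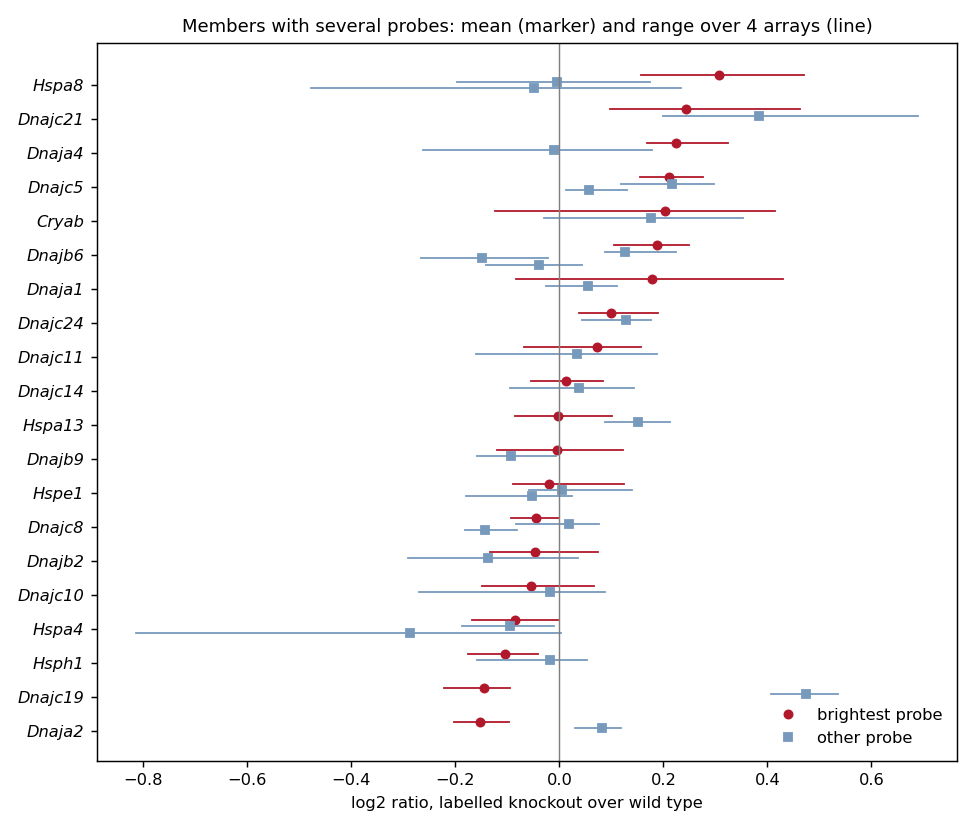
Mean log2 ratio (marker) and range over 4 arrays (line) for every kept probe of the 20 members with more than 1, labelled knockout over wild type. Circles are the brightest probe, which stands for the gene elsewhere, and squares are the other probes. The 2 probes of Dnajc19 do not overlap (-0.15 and 0.47), and the dimmer Hspa8 probes centre on 0 while the brightest lies at 0.31. Dnaja2, below 0 on its brightest probe, was above 0 without loess.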

How the data were processed

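Per the labels, each of the 4 two-colour Agilent arrays compared cortical RNA of 1 replicate number, Cy5 for Ndrg2-/- and Cy3 for wild type. Per the file headers, all arrays sat on 1 slide in 1 scan, images were read with Agilent Feature Extraction 11.0.1.1 (10.7.3.1 per the submitters' processing notes), and the raw intensity is the median pixel signal with its local background. The deposited log10 ratio, red over green, and the deposited log2 table are both taken from the scanner's processed signals. The processed signals are background-subtracted and dye-normalized per the file headers, with a correlation of 1 between table and signals on every array, and the table's column medians were 0.04, 0.03, -0.04 and -0.04.

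Ratios were computed from the raw intensity in R 4.3.3 with limma 3.58.1 and data.table (version 1.17.8): normexp background correction (offset 50), loess within each array with 1377 control spots at weight 0, and 802 outlier spots over the 4 arrays left out. Probes flagged well above background in green, or in red, on every array were kept (27664 of 39429), and a gene is its kept probe with the highest mean intensity. An intercept-only model (lmFit, eBayes; residual degrees of freedom 3 and prior ones 4.47) was used, with Benjamini-Hochberg adjustment over all kept probes. The fit was tested on simulated data. The precision is limited by the number of arrays. Symbols came from RefSeq accessions on assembly GRCm38.p6, and the array's own annotation uses an older build.

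Values on every array are given for the best-known members, for up to 4 further called members of each class by size, and up to 3 called genes are named of each comparison list. Array values of Dnajb12, Dnajc19 and Cct5, which were not called, were added after they were seen. Those of Sdf2l1, Manf and Ero1b, and the order of the arrays in Pdia4, are also given beyond this rule. The members and lists were chosen with earlier results of these data known. A planned comparison of protein tails was not run, as no protein table was used here, and the planned mean pixel signal was replaced by the median one. Alternatives to each choice are described in the closing section.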

Additional observations from a re-analysis of the deposited data

Results flagged for a closer look

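In each of 76 members, the array farthest from the others was compared with Dixon's critical value for 4 values, and 3 members went beyond it. The value is set so that chance alone flags about 1 gene in 20. Dnajb14 had -0.15 on array 1, with the other arrays from -0.04 to -0.03. Hspbp1, an HSP70-binding nucleotide exchange factor, had -0.070 on array 4 and 0.11 to 0.14 on the others. Dnajc13 had 0.28 on array 4 and 0.13 to 0.16 on the others, so its call carries 1 array that stands high, and without that array its mean was 0.15 (adjusted p = 0.0755 in limma).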

How the results depend on the processing

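The limits come from 4 arrays, a fixed dye and small ratios. The counts of called members, 10 higher and 5 lower, became 2 and 3 with the processed signals and the deposited table alike. They became 37 higher without loess (each array then centred on its median over kept probes, with a median of all genes of 0.06). With an intensity trend in the prior variance 8 were lower, and without 1 array the counts ran from 2 to 8 higher and 1 to 3 lower. Calls over all genes changed too, from 1437 higher and 920 lower to 779 and 550 with the processed signals. They were 5630 and 4126 without loess, and 1706 and 1185 with the intensity trend. The within-array ratio pairs the samples of 1 replicate number, and with no replicate block (channels as unpaired samples) the calls were 5 higher and 1 lower, so that 6 of the 15 calls remained. Without background subtraction 14 of the 15 calls remained, with no filter 13, with the mean of probes 11, and with both channels above background or the intensity trend all 15.

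Without loess the median was 0.12 for all members, 0.12 for CCT, 0.13 for ER, 0.23 for constitutive, 0.19 for inducible, 0.18 for mitochondrial, 0.082 for unclassed, 0.27 for synaptic and endosomal and -0.37 for testis-enriched members. The synaptic and endosomal median was 0.10 with the processed signals and the deposited table, 0.16 without background subtraction, 0.16 with the mean of probes and 0.15 to 0.19 without 1 array, and the testis-enriched median was -0.12 with the processed signals and the deposited table, 0.0029 with no filter and -0.091 to -0.023 without 1 array. Without loess 32 of the 76 members turned sign, among them Dnaja2 (0.031), Dnajc30 (0.0087), Hsp90aa1 (0.19), Hsp90b1 (0.21), Hspa1a (-0.011), Hspa9 (0.057), Hspe1 (0.19) and Hsph1 (0.14), and so did Htra2 of the comparison list (0.017). Of these members, Hsp90aa1, Hsp90b1, Hspe1 and Hsph1 were called higher without loess. With the processed signals and the deposited table the sign turned in 6 members, among them Bag3 (-0.031), Hsp90ab1 (-0.0019) and Hspe1 (0.0066). Without 1 array Bag3 ran from -0.0022 to 0.081, Hspa1a from -0.0071 to 0.058 and Hspe1 from -0.067 to 0.0045, none of them called. The cause of these changes was not tested. The 4.55% of members with a 3-unit heat shock element before the start compares with 6.06% over the whole window.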
